A study of Mus musculus with 6 samples.

Results

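The 2 ends of each of the 19 mouse autosomes were examined for CpG methylation in neonatal neocortex. A CpG belonged to the centromere-proximal end when it lay below 8 Mb, and to the distal end when it lay within 5 Mb of the last listed CpG of its autosome. Together the ends held 46296 of the 534921 autosomal CpGs that had at least 10 reads in all 6 samples, or 8.65%. The centromere-proximal ends held 17425 CpGs, the distal ends 28871 and the chromosome interior 488625. The rule used position and read number, and no methylation level entered it.

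The samples were neocortex from mice at postnatal day 5, 3 wild type (WT) and 3 Chd8+/-, heterozygous for the gene of the chromatin remodeller CHD8. The assay, reduced representation bisulfite sequencing (RRBS), cuts DNA with MspI at CCGG sites and converts unmethylated cytosines with bisulfite before reading. The sources name the series a study of the mouse neocortical model of CHD8-related neurodevelopmental disorder, and the comparison asks where the methylome differs by genotype. The nature of the Chd8 allele, the strain, the sex and the number of animals behind each sample are not given in the sources used here. The labelled tissue could not be checked against expressed markers, because the data hold methylation only.

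Mouse autosomes are acrocentric: the centromere sits close to one end, and the first assembled sequence of each autosome lies next to pericentromeric satellite repeats. The opposite end runs into subtelomeric sequence and the telomere. In mammalian brain most CpGs in sparse sequence are methylated, while CpG-dense islands, many of them at promoters, are mostly unmethylated, so a mean level follows the local CpG density. Density was therefore counted as the number of listed CpGs within 250 bp of each CpG, itself included, in classes of 1 to 5, 6 to 10, 11 to 20 and over 20.

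Of the promoter segments at the ends, 5 are printed here. That of Usp36 was the distal promoter with the smallest p between genotypes, and the others were among the few methylated ones. Each line gives the 250 bases before the gene start from RefSeq (GRCm38.p6), 5′ to 3′ in the direction of the gene. Capitals mark CpGs that had at least 10 reads in all 6 samples. The segments were placed on mm39 by the spacing of their CpGs alone.
1700020D05Rik: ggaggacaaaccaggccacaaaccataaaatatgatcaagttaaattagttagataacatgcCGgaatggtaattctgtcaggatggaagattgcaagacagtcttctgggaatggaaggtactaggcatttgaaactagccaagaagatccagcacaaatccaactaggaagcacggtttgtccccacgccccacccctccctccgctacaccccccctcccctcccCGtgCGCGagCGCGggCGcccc
Hormad2: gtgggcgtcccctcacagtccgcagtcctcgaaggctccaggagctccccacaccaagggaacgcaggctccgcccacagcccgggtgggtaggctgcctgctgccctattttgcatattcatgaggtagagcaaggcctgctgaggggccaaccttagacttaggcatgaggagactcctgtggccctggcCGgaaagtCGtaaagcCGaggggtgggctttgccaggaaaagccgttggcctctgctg
Oxgr1: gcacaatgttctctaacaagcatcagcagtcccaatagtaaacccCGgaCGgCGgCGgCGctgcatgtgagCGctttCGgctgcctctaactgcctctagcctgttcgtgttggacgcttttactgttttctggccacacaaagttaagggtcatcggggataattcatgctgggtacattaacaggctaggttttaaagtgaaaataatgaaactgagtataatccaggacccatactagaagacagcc
Tmem267: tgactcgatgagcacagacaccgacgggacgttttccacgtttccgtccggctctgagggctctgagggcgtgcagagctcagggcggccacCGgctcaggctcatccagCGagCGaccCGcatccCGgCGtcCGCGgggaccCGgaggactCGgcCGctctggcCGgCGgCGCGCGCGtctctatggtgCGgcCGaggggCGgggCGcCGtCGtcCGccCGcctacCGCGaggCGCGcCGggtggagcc
Usp36: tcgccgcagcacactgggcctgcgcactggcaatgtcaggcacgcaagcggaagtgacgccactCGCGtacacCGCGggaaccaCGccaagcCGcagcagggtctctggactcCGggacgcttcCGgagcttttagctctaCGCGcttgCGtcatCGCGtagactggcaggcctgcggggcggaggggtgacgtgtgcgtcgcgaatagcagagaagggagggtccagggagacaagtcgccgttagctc

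The segment of 1700020D05Rik was placed at chr19:5553816-5554065 and that of Hormad2 at chr11:4391083-4391332, both on the minus strand at centromere-proximal ends. That of Oxgr1 was placed at chr14:120279848-120280097 on the minus strand, that of Tmem267 at chr13:119624759-119625008 on the plus strand, and that of Usp36 at chr11:118181071-118181320 on the minus strand, all at distal ends. The Tmem267 segment carried 39 CpGs in 250 bases, and the Oxgr1 segment 10. No mm39 gene annotation was used here, so exons, introns and UTRs are not assigned.

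Per-CpG depth was close to that of the interior. The median read number per CpG over the 6 samples was 39.7 at the centromere-proximal ends, 39.5 at the distal ends and 40.7 in the interior, with sample medians between 30 and 51. Summed coverage over all listed cytosines was 32285980 to 54818138 per sample and was lower in each Chd8+/- sample than in each WT sample. Replicate 3 of both groups had 2.58% and 2.56% of its summed coverage on chromosome X, against 1.18% to 1.21% in the other libraries. The genotype differences of the whole ends and the interior are therefore also given for replicates 1 and 2 alone. Those of single autosomes, regions, windows, CpGs and promoters are not. The ends differed from the interior in how many CpGs they offered. Listed CpGs per Mb averaged 579 over the centromere-proximal ends (196 to 2252 by autosome) and 968 over the distal ends (149 to 2224), against 659 in the interior (492 to 957). In the class over 20 lay 19.1% of centromere-proximal and 18.8% of distal CpGs, against 17.1% of interior CpGs.

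The centromere-proximal ends were methylated at close to the interior's mean level as they stood, and above it once CpG density was held equal. In WT replicates 1 to 3 the mean level was 48.0%, 48.3% and 48.0%, and it was 48.4%, 48.7% and 49.3% in Chd8+/- replicates 1 to 3. The interior stood at 47.9% in each WT sample and at 48.0%, 48.3% and 49.2% in Chd8+/-. The difference of 0.245 points (SD 0.153, n = 6) was above 0 in 6 of 6 samples. With the density classes weighted as in the interior, the centromere-proximal level was 2.49 points higher (SD 0.148, n = 6, exact two-sided sign-flip permutation p = 0.03125, the smallest that 6 samples allow). Chromosome 19 supplied 17.7% of the centromere-proximal CpGs. Without it, an alternative added after the data were seen, the excess was 3.38 points unstandardised and 3.54 standardised. With reads as weights the differences were -0.720 unstandardised and -0.174 standardised, and with ends of 6 and 3 Mb the unstandardised one was -1.39. The unstandardised excess was 1.36 points at a minimum of 20 reads and 4.37 with autosomes weighted equally.

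The sparse classes were higher at the centromere-proximal ends. CpGs of the class 1 to 5 had a level of 73.4% there against 69.8% in the interior, a difference of 3.62 points (SD 0.151, n = 6), with 16 of 19 autosomes higher and a range over autosomes of -4.50 to 18.6. The class 6 to 10 was 2.56 points higher (SD 0.289, n = 6), in 13 of 19 autosomes. Both had an exact two-sided sign-flip permutation p of 0.03125, adjusted to 0.0357 over the 8 class comparisons (n = 6). The class 11 to 20 differed by 0.0377 points with 3 of 6 samples on each side of 0 (exact permutation p = 0.6875, n = 6). Within the sparsest class, 58.1% of centromere-proximal CpGs were over 80% methylated, against 52.7% of interior CpGs. This class difference lay between 3.45 and 3.84 points in the 6 samples, while autosomes differed among themselves by far more. The test therefore speaks of these 6 samples over one fixed set of chromosomes, not of chromosome ends in general.

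The distal ends were lower than the interior. The level was 44.6%, 44.6% and 44.4% in the WT samples and 44.6%, 44.8% and 45.9% in Chd8+/- replicates 1 to 3. This was 3.36 points below the interior (SD 0.0940, n = 6), and 1.11 points below it after standardisation for density (SD 0.111, n = 6), in 6 of 6 samples each. Pooled over autosomes, the class 1 to 5 was lower by 1.88 points (-1.88, SD 0.174, n = 6) and the class 6 to 10 by 1.99 points (-1.99, SD 0.142, n = 6). The class 11 to 20 was 0.925 points higher (SD 0.104, n = 6). Each of these 3 had an exact two-sided sign-flip permutation p of 0.03125, adjusted to 0.0357 (n = 6). Autosomes were divided: 8 of 19 had a higher distal than interior level in the class 1 to 5, 11 of 19 in the class 6 to 10 (median 0.455 points), and 9 of 19 after standardisation. With the autosomes weighted equally the standardised difference turned to 0.393 points above the interior and the unstandardised one was -0.161. With distal ends of 10 Mb and proximal ends of 13 Mb they were 0.613 and 0.322 points, and with distal ends of 3 Mb -3.04 and -6.92.

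**Figure D1:**
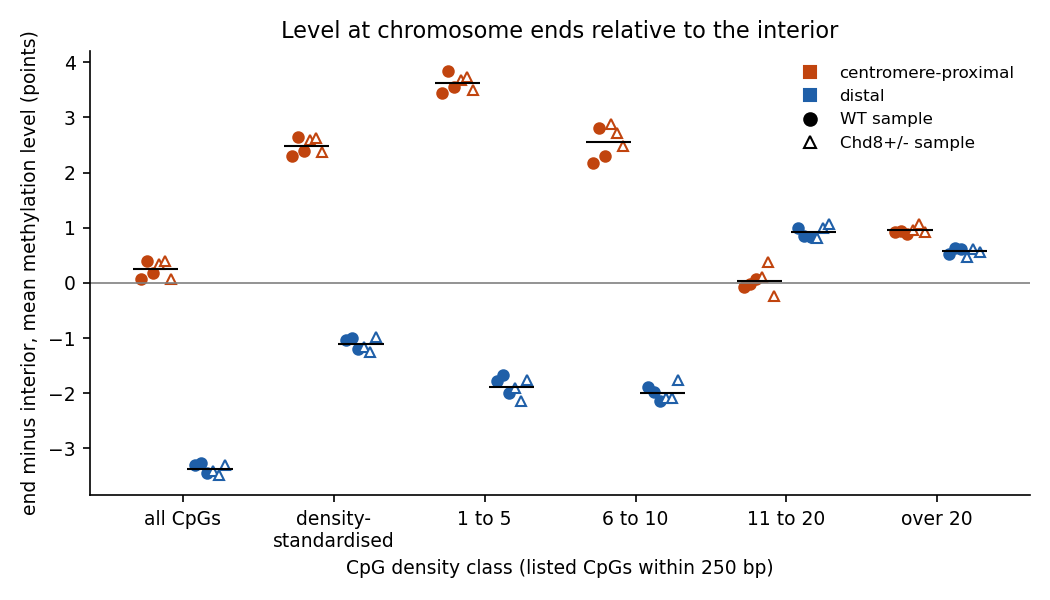
Mean methylation level of the centromere-proximal and distal ends minus that of the interior, in points, for all CpGs, after standardisation for density and in each CpG density class. Filled circles are the 3 WT samples, open triangles the 3 Chd8+/- samples and black lines the mean of 6. The centromere-proximal ends lie 3.62 points above 0 in the class 1 to 5, where the distal ends lie at -1.88.

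Both ends were higher than the interior in the class over 20, where CpG islands fall. The level was 2.94% at the centromere-proximal ends and 2.56% at the distal ends against 1.99% in the interior, differences of 0.951 (SD 0.0588, n = 6) and 0.571 points (SD 0.0639, n = 6), each in 6 of 6 samples with an adjusted exact permutation p of 0.0357 (n = 6). The excess came from few autosomes. Only 3 of 19 autosomes had a higher centromere-proximal than interior level in this class, and the median autosome was lower, at -0.849 points. On chromosome 7 the 262 CpGs of the class at the centromere-proximal end had a level of 17.7%, and on chromosome 8 the 52 such CpGs had 16.9%. Distally, 8 of 18 autosomes were higher, with 35.6% over 96 CpGs on chromosome 13 and 27.1% over 28 CpGs on chromosome 17. Correspondingly, 1.697% of centromere-proximal and 1.38% of distal CpGs of this class were over 80% methylated, against 0.842% in the interior.

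The methylated CpG-dense sequence lay in a few windows of 1000 bp. Of the windows with 50% or more of their CpGs in the class over 20, 13 of 331 at the centromere-proximal ends (3.93%) and 16 of 538 at the distal ends (2.97%) had a mean level over 20%, against 178 of 7999 in the interior (2.23%). These windows were picked by level after the values were seen, so the shares are a description. The window chr7:5034001-5035000 held 27 CpGs at 86.6% to 89.2% in the 6 samples, and lay 6.40 kb before the placed promoter of the zinc finger gene Zfp784. The window chr17:5392001-5393000 held 10 CpGs at 94.96% to 98.9%, between the placed promoters of Arid1b, a subunit gene of a chromatin remodelling complex, and Gm52310. The window chr13:119624001-119625000 held 30 CpGs at 79.8% to 90.2% and overlaps the Tmem267 segment printed above. WT and Chd8+/- overlapped in all 3. One dense window had between 30% and 70% in all 6 samples: chr11:118782001-118783000, with 25 CpGs at 43.4%, 45.0% and 47.4% in WT and 48.2%, 39.5% and 61.9% in Chd8+/-. Its nearest placed promoters were 414 kb and 132 kb away.

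The ends differed widely between autosomes. At the centromere-proximal ends the level ran from 33.7% on chromosome 19 to 69.6% on chromosome 3, while autosome interiors ran only from 42.1% to 52.2%. The centromere-proximal end of chromosome 19 read 33.1%, 33.6% and 33.6% in WT and 33.6%, 33.7% and 34.5% in Chd8+/-. It had the most listed CpGs of these ends, 2252 per Mb, and 26.5% of its 3086 CpGs were in the class over 20. That of chromosome 3 read 69.4%, 69.3% and 69.3% in WT and 70.1%, 69.4% and 70.2% in Chd8+/-, with the fewest listed CpGs, 196 per Mb, and 6.52% of its 414 CpGs in that class. The distal level ran from 35.0% on chromosome 7 to 69.5% on chromosome 17. The distal end of chromosome 7 read 34.5%, 35.1% and 34.6% in WT and 35.2%, 35.0% and 35.8% in Chd8+/-. That of chromosome 17 read 70.4%, 68.6% and 70.1% in WT and 69.7%, 68.9% and 69.6% in Chd8+/-, over 305 CpGs. In each of these 4 ends the 6 samples lay within 2 points of each other, so the distance between the highest and the lowest autosome far exceeded the spread between samples.

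**Figure D2:**
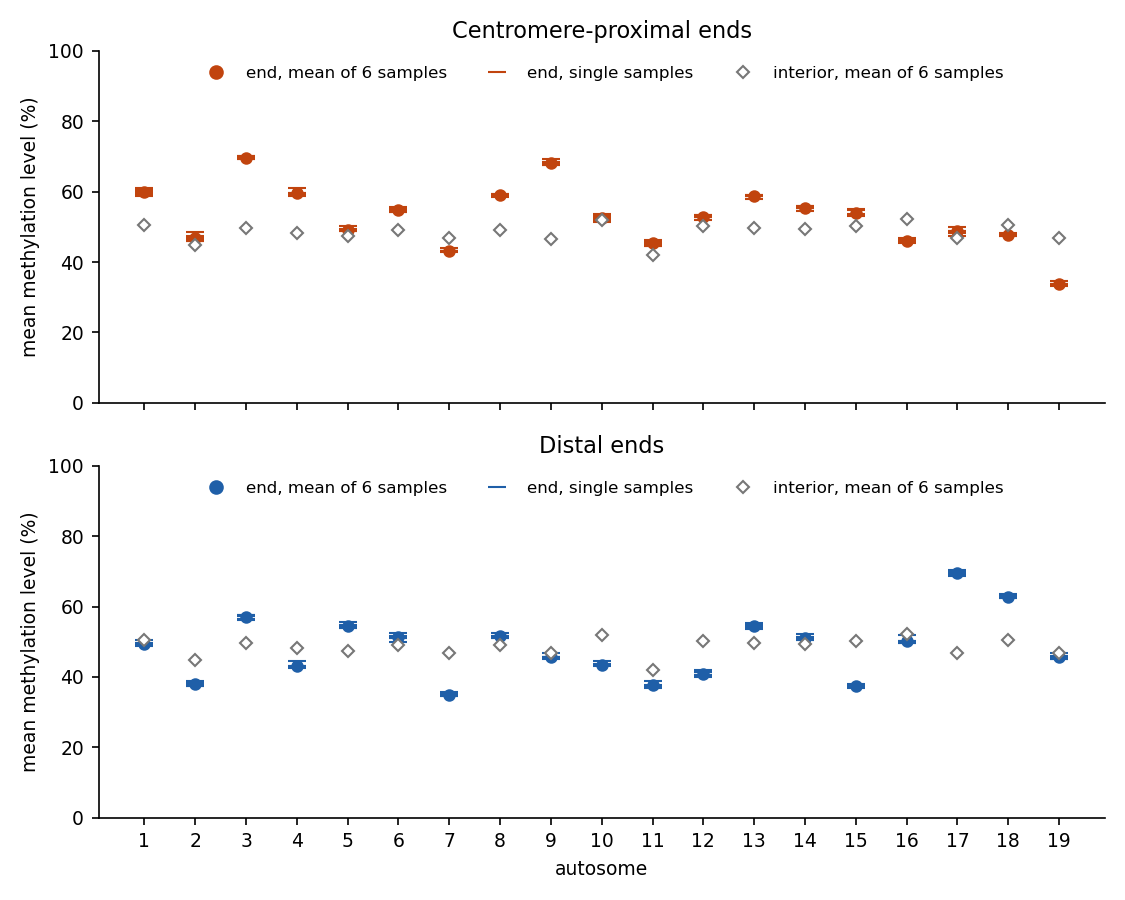
Mean methylation level in percent of each autosome's centromere-proximal end (upper panel) and distal end (lower panel), with dashes for the 6 samples, dots for their mean and open diamonds for the interior of the same autosome. The ends range from 33.7% to 69.6% and from 35.0% to 69.5%, and the interiors from 42.1% to 52.2%.

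Level also changed along the ends. After standardisation for density, the first Mb from position 3 Mb, where the assembled sequence begins, had 52.0%, the following 4 steps of 1 Mb had 49.8% to 50.8%, and the interior mean was 48.2%. At the other end the last Mb had 47.6% and the step from 1 to 2 Mb inside the last listed CpG had 42.2%, the lowest of the 5 distal steps. That step read 41.7%, 42.2% and 41.9% in WT and 42.0%, 42.2% and 43.2% in Chd8+/-. Its sparsest class stood at 64.2% and its class 6 to 10 at 39.96%, both under the interior's 69.8% and 54.0%. Chromosome 15 supplied 16.2% of its CpGs. The steps from 2 to 3, 3 to 4 and 4 to 5 Mb had 46.5%, 49.99% and 48.1%. Single steps farther inside, from 5 to 20 Mb, ranged from 44.7% to 53.6%, so the 52.0% of the first Mb lay within the range of interior steps and the 42.2% lay below it.

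**Figure D3:**
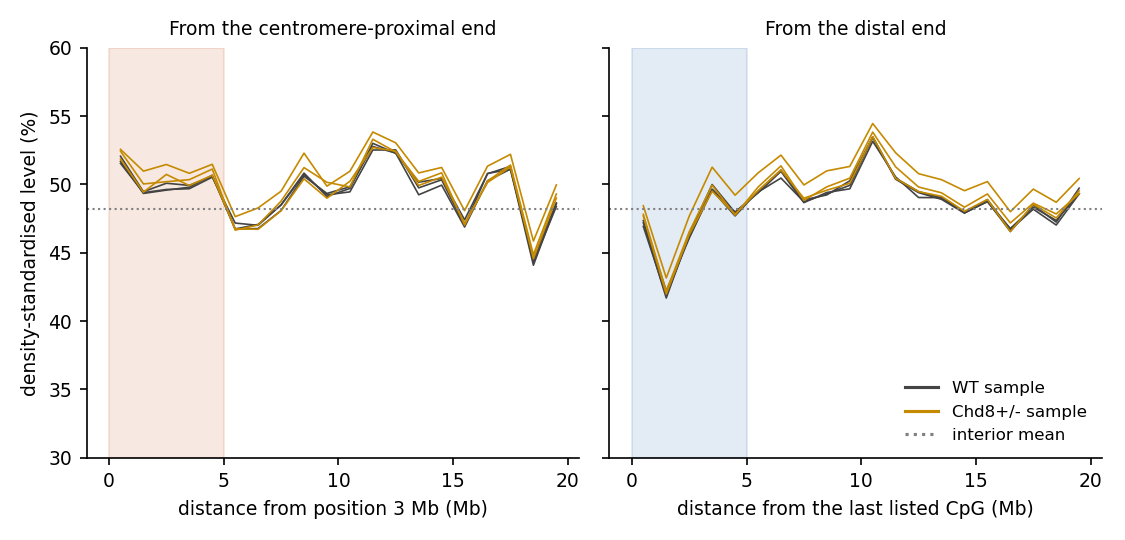
Density-standardised methylation level in percent in steps of 1 Mb from position 3 Mb (left) and from the last listed CpG of each autosome (right), one line per sample, with the interior mean dotted and the ends shaded. The dip to 42.2% lies 1 to 2 Mb inside the distal end, and the highest line is Chd8+/- replicate 3 in most steps.

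Single 1 Mb regions spread more widely than whole ends. The lowest centromere-proximal region was chr19:5000001-6000000 at 29.6%, 30.6% and 30.2% in WT and 30.4%, 30.1% and 31.5% in Chd8+/-, over 961 CpGs. It held the placed promoters of Rela, a subunit of NF-κB, of Cfl1, which encodes the actin-severing protein cofilin, and of the acetyltransferase gene Kat5 among others. The highest was chr3:6000001-7000000 with 64 CpGs at 92.9% to 94.9% and no placed promoter. The lowest distal region was chr15:102000001-103000000 with 892 CpGs at 19.3% to 19.7%. It held the placed promoters of the transcription factor genes Sp1, Atf7 and Rarg, the last a retinoic acid receptor, and of Espl1, the separase gene. The highest distal region was chr10:129000001-130000000 with 64 CpGs at 82.5% to 87.0% and no placed promoter. Only part of the RefSeq promoters could be placed, so a region with none can still hold genes. Levels over 80% were reached by 8 of 89 centromere-proximal and 4 of 81 distal regions, and by 5.11% of the 1897 interior regions.

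The outermost covered CpGs of the autosomes were mostly, but not always, methylated. At the centromere-proximal ends 13 of 19 had a mean over 80% and none was under 20%, and at the distal ends 11 of 19 were over 80% and 3 under 20%. On chromosome 1, the autosome named by the rule, the CpG at position 3115988, with 19 to 46 reads, read 80.4%, 89.3% and 100% in WT and 66.7%, 100% and 100% in Chd8+/-. The CpG at position 195049533, with 89 to 156 reads, read 81.5%, 71.0% and 88.7% in WT and 87.2%, 82.0% and 83.3% in Chd8+/-. The groups overlapped at both. Of all ways to assign the labels to 6 distinct values, 10% set the groups apart. Over all autosomes the groups were apart at 2 of 19 centromere-proximal and no distal outermost CpGs. One of the 2, at position 3009029 of chromosome 3 and named after its values were seen, read 74.3%, 48.8% and 64% in WT and 12.5%, 47.1% and 10.5% in Chd8+/-, with as few as 16 reads.

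The mean level of both ends was slightly higher in Chd8+/-, as it was in the interior. At the centromere-proximal ends WT had 48.1% ± 0.144 (SD, n = 3) and Chd8+/- 48.8% ± 0.458 (SD, n = 3), a difference of 0.657 points (SE 0.277) with groups that did not overlap. The exact two-sided permutation p was 0.1, the smallest that 3 against 3 allows (n = 3). At the distal ends WT had 44.6% ± 0.107 (SD, n = 3) and Chd8+/- 45.1% ± 0.696 (SD, n = 3), a difference of 0.532 points (SE 0.407, exact permutation p = 0.3, n = 3) with overlapping groups. The interior differed by 0.601 points (SE 0.356, exact permutation p = 0.1, n = 3). Much of this came with one library: without Chd8+/- replicate 3 the differences were 0.408, 0.134 and 0.253 points at the centromere-proximal ends, the distal ends and the interior. In replicates 1 and 2 alone, an alternative added after the data were seen, they were 0.380, 0.0725 and 0.247 points. With each CpG weighted by its reads the differences were 3.02, 2.70 and 3.33 points, each with an exact permutation p of 0.2 (n = 3).

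**Figure D4:**
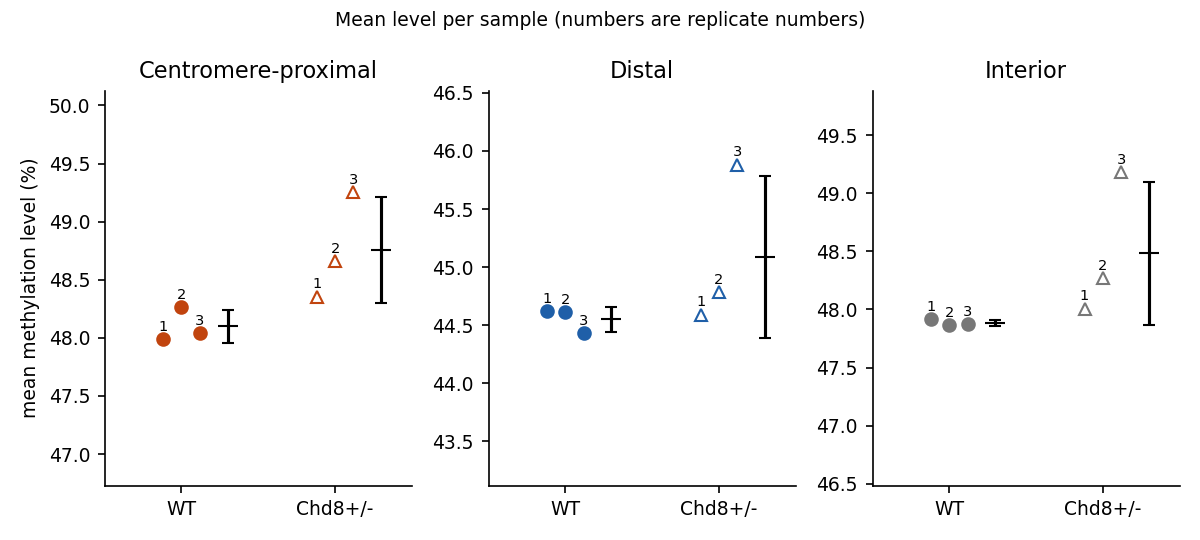
Mean methylation level in percent of each sample at the centromere-proximal ends, the distal ends and the interior, each panel with its own range of the same width. Numbers are replicate numbers, and bars are the mean ± SD of 3 samples. Chd8+/- replicate 3 is the highest sample in all 3 panels, at 49.3%, 45.9% and 49.2%.

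No difference in the genotype effect between ends and interior was detected. The genotype difference at the centromere-proximal ends exceeded that of the interior by 0.0566 points (exact permutation p = 1, n = 3), and at the distal ends it was lower by 0.0682 points (-0.0682, exact permutation p = 0.4, n = 3). With reads as weights these were -0.316 and -0.635 points (exact permutation p of 0.6 and 0.2, n = 3). By density class, Chd8+/- was higher in all 4 classes at both ends in the main values. The class over 20 changed sign at a minimum of 20 reads at the centromere-proximal ends and under several alternatives at the distal ends. The distal class 1 to 5 changed sign in replicates 1 and 2. At the centromere-proximal ends the differences were 0.851, 0.950, 0.377 and 0.125 points in the order of rising density, and the groups did not overlap in the last 3. At the distal ends they were 0.721, 0.704, 0.347 and 0.0301 points, and only the class 11 to 20 had groups apart. The interior classes differed by 0.836, 0.680, 0.280 and 0.0643 points, with groups apart in all 4 (100%). The adjusted exact permutation p over these 8 comparisons was 0.2 at the lowest (n = 3), so none passed a threshold that the design could not reach. In the class 1 to 5 of the distal ends the difference was 0.0983 points without Chd8+/- replicate 3 and -0.00989 in replicates 1 and 2.

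Autosome by autosome, Chd8+/- was higher at 19 of 19 centromere-proximal ends and 17 of 19 distal ends. The groups were apart at 9 centromere-proximal and 3 distal ends, against 11 of 19 interiors (57.9%). Without Chd8+/- replicate 3 the counts higher in Chd8+/- were 18, 11 and 19 at the centromere-proximal ends, distal ends and interiors. The centromere-proximal difference ran from 0.0134 points on chromosome 13 to 1.22 on chromosome 15, where WT read 53.4%, 53.3% and 53.1% and Chd8+/- 53.6%, 54.7% and 55.2%. The distal difference ran from -0.306 on chromosome 17 to 1.16 on chromosome 13, where WT read 53.9%, 54.2% and 53.5% and Chd8+/- 55.0%, 55.2% and 54.9%. At that end the 3 Chd8+/- values lay within 0.4 points of each other, and the difference without replicate 3 was 1.24. The exact permutation p of both was 0.1 (n = 3), unadjusted over 57 autosome comparisons.

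**Figure D5:**
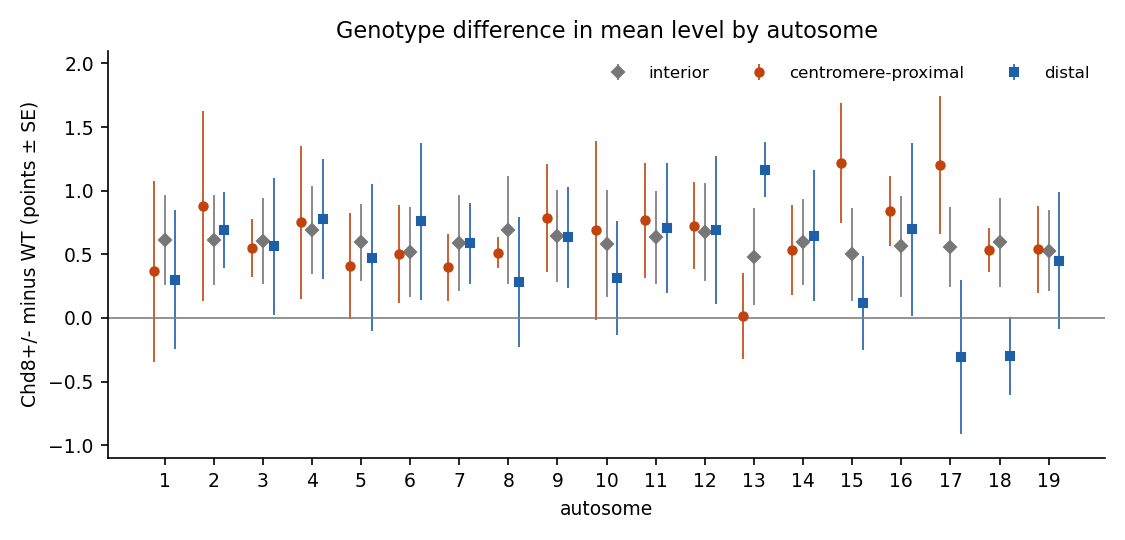
Chd8+/- minus WT in mean methylation level, in points ± SE (3 samples against 3), for the centromere-proximal end, the interior and the distal end of each autosome. Interiors lie between 0.481 and 0.693 points, the centromere-proximal ends between 0.0134 and 1.22, and the distal ends between -0.306 and 1.16.

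No single CpG at the ends differed by genotype after adjustment. edgeR's quasi-likelihood test with Benjamini-Hochberg adjustment over 418119 autosomal CpGs called 0% of them, and limma also called 0. At an unadjusted p under 0.05, edgeR had 511 of 13046 centromere-proximal CpGs (3.92%, 313 higher and 198 lower in Chd8+/-) and 767 of 22326 distal CpGs (3.44%, 439 higher and 328 lower), beside 3.59% of all autosomal CpGs. These shares were near the background. The smallest edgeR adjusted p at the ends belonged to the distal CpG chr5:147663437-147663437, 0.366 kb outside the placed promoter of Flt1, which encodes a receptor for vascular endothelial growth factor. It read 0% in each WT sample and 5.81%, 9.57% and 4.05% in Chd8+/-, with 115 to 190 reads per sample (edgeR adjusted p = 0.797). The distal CpG chr3:155601948-155601948 read 88.6%, 81.7% and 83.7% in WT and 100% in each Chd8+/- sample, with 64 to 113 reads. At the centromere-proximal ends the CpG chr9:6394126-6394126 read 100% in each WT sample and 97.9%, 95.3% and 97.0% in Chd8+/-, with 128 to 231 reads. The CpG chr10:4382508-4382508, inside the placed promoters of Armt1 and Rmnd1, read 0%, 1.79% and 1.38% in WT and 0% in each Chd8+/- sample, with 294 to 502 reads. The first 3 had groups apart and the fourth did not, and they were picked by p, so their separation is not further support.

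Windows of 1000 bp gave the same count. edgeR with Benjamini-Hochberg adjustment over 68160 windows called 0 of them, limma called 0, and the background at an unadjusted p under 0.05 was 3.76%. The ends had 87 of 2146 centromere-proximal windows (4.05%, 47 higher in Chd8+/-) and 144 of 3721 distal windows (3.87%, 82 higher) below that p. The centromere-proximal window with the smallest p, chr19:3722001-3723000, held 8 CpGs and read 95.6%, 98.2% and 94.1% in WT and 100% in each Chd8+/- sample (127 to 345 reads). The window chr17:7800001-7801000 held 3 CpGs and read 88.9%, 83.3% and 80.3% in WT and 100%, 98.6% and 100% in Chd8+/-, and chr4:7710001-7711000 held 5 CpGs at 92.7% to 98.3% in WT and 99.6% to 100% in Chd8+/-. All 3 were higher in Chd8+/-, where they were near full methylation. Of the distal windows, chr11:118181001-118182000 around the Usp36 promoter read 0% in each WT sample and 0.315%, 0.249% and 0.991% in Chd8+/-, over 15 CpGs. The window chr16:94798001-94799000 read 0% in each WT sample and 2.47%, 1.35% and 5% in Chd8+/-. The window chr14:120376001-120377000 went the other way, at 99.4%, 100% and 100% in WT and 95.3%, 91.7% and 87.0% in Chd8+/-, 95.9 kb from the placed promoter of Oxgr1. All 6 had an edgeR adjusted p near 1. A count of 0 after adjustment does not show that windows did not differ.

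At the scale of 1 Mb, 71 of 89 centromere-proximal and 64 of 81 distal regions were higher in Chd8+/- (79.8% and 79.0%), beside 1421 of 1897 interior regions (74.9%), with median differences of 0.649 and 0.577 points beside 0.526 points in the interior. All 3 Chd8+/- samples lay above all 3 WT samples in 13 centromere-proximal and 10 distal regions, beside 14.5% of all 2084 regions. limma with Benjamini-Hochberg adjustment called 0.048% of the regions, which was 1 interior region and none at the ends. At an unadjusted p under 0.05 it had 6 centromere-proximal regions (6.74%, all higher in Chd8+/-) and 7 distal regions (8.64%, 6 higher), beside 8.35% of all regions, where 165 of 174 were higher (7.92% of the regions tested). With each sample centred on its autosomal mean, 5 centromere-proximal regions with 0 higher and 6 distal regions with 4 higher were below that p, beside 66 higher of 133 over all regions. The largest distal difference was chr19:61000001-62000000, the last region of chromosome 19, with 87 CpGs and the placed promoter of Csf2ra, which encodes a receptor subunit for the cytokine GM-CSF. It read 35.0%, 37.7% and 33.5% in WT and 38.1%, 39.3% and 41.8% in Chd8+/-, 4.32 points higher (SE 0.969, limma adjusted p = 0.121). Its call depended on the libraries: it passed without WT replicate 2 (limma adjusted p = 0.0109) and without Chd8+/- replicate 1 (0.0222), and the adjusted p was 0.495 without WT replicate 3. With each sample centred on its autosomal mean it was 3.72 points higher (limma adjusted p = 0.479). The region chr11:121000001-122000000, with the placed promoters of Foxk2 and Metrnl among others, read 44.9%, 44.4% and 43.5% in WT and 46.9%, 46.8% and 46.9% in Chd8+/-, 2.59 points higher (SE 0.659, limma adjusted p = 0.178). The distal region next by p, chr13:118000001-119000000, read 62.4%, 61.4% and 61.3% in WT and 65.9%, 66.1% and 63.6% in Chd8+/-. It was 3.55 points higher (SE 0.949, limma adjusted p = 0.204). The centromere-proximal region with the smallest p, chr17:5000001-6000000, holds the Arid1b promoter and read 46.8%, 46.7% and 45.2% in WT and 49.2%, 46.9% and 49.2% in Chd8+/- (limma adjusted p = 0.466). Next at these ends were chr4:6000001-7000000, 1.69 points higher with groups apart, and chr18:4000001-5000000, 1.54 points higher with overlapping groups. Both had a limma adjusted p of 0.529.

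The placed promoters at the ends were unmethylated with few exceptions. Placement needed at least 8 CpGs in a segment, and 16014 of 31396 distinct sequences had too few. The shares below thus cover CpG-rich promoters only and do not describe all promoters at the ends. Of the promoter segments that could be placed and had enough covered CpGs, 161 of 168 centromere-proximal and 263 of 273 distal ones had a mean level under 5%, beside 97.8% of 4046 in the interior. Over 20% were 3 centromere-proximal (1.79%) and 6 distal ones (2.20%), beside 47 in the interior (1.16%). Levels are over the covered CpGs from 250 bases before to 50 after the start, which is 50 bases more than the printed segments. The promoter of 1700020D05Rik read 54.9%, 80.8% and 54.2% in WT and 73.7%, 74.3% and 79.7% in Chd8+/- over 9 CpGs, with overlapping groups. Hormad2, which encodes a protein of the meiotic chromosome axis, read 57.0%, 59.4% and 52.4% in WT and 49.7%, 78.5% and 62.8% in Chd8+/-. Gm31138 at the end of chromosome 9 read 15.5% to 27.7% in WT and 20.3% to 28.0% in Chd8+/-. At the distal ends Oxgr1, which encodes a receptor for 2-oxoglutarate, read 99.03%, 77.9% and 86.1% in WT and 100%, 100% and 94.4% in Chd8+/-. Tmem267 read 81.9%, 87.2% and 84.0% in WT and 88.2%, 91.0% and 84.5% in Chd8+/- over 37 CpGs, and the overlapping segment of the long noncoding RNA gene 3110070M22Rik 81.5% to 90.7%. Of the promoters with printed sequences, that of Tmem267 was thus methylated, with 30 of its 39 printed CpGs covered. That of Usp36, with 13 of its 28 printed CpGs covered, was at 0% in WT.

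By genotype, edgeR called 0 of 3898 placed promoters after adjustment, and limma called 1, in the interior. The background at an unadjusted p under 0.05 was 1.9%, and the ends had 1 of 146 centromere-proximal and 2 of 228 distal promoters below it by edgeR. limma had 18 of 374 at the ends below that p (4.81%), beside 230 of 3898 in all (5.90%). The centromere-proximal one was Gm14966, whose segment overlaps that of the splicing factor gene Sf1: it read 0% in each WT sample and 1.04%, 2.31% and 1.52% in Chd8+/-. Rce1, which encodes a protease that trims prenylated proteins, and Tmem123 followed, both at 0% in each WT sample and at up to 10% and 0.601% in Chd8+/-. Among distal promoters Usp36, a nucleolar deubiquitinase gene, read 0% in each WT sample and 0.364%, 0.288% and 0.118% in Chd8+/-. Rps26, a ribosomal protein gene, and Vps26c, a subunit gene of an endosomal sorting complex, read up to 1.06% and 1.21% in WT and 0% in each Chd8+/- sample. All 6 had an edgeR adjusted p of 0.922, and the changes were of a few reads.

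Of the gene lists, 5 of 52 imprinted genes, none of 25 germline genes and 1 of 51 neural and glial genes had a measured promoter at the ends. The germline list did not include Hormad2, the meiotic gene whose measured promoter at an end is given above. The imprinted members were near 0 over their covered CpGs, which were few in some of them. Ascl2, a trophoblast transcription factor gene, read 7.07%, 3.65% and 1.92% in WT and 0%, 6.25% and 0% in Chd8+/-. Calcr, the calcitonin receptor gene, read 0% to 0.769% in WT and 0% to 2.00% in Chd8+/- over a segment shared with Gm33576. The tetraspanin gene Cd81 read 0% to 1.39%, Tssc4 read 0% except for 5.41% in Chd8+/- replicate 1, and the lipid transfer gene Osbpl5 read 0% in all 6. Chrna4, a nicotinic acetylcholine receptor subunit gene, read 0% to 5.56%. Groups overlapped in all 6 genes. Of the CpGs in the 250 bases before the start, 1 of 19 was covered in Ascl2 and 1 of 17 in Tssc4. Osbpl5 had 0 of 18 covered there, Cd81 6 of 16 and the Gm33576 segment 7 of 24. The dense window chr7:143013001-143014000, between the placed promoters of Tssc4 and Phlda2, was not near 0. It held 5 CpGs at 22.1%, 57.1% and 74.8% in WT and 16.0%, 42.3% and 80.5% in Chd8+/-.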

How the data were processed

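RRBS was made from 3 WT and 3 Chd8+/- neocortex samples at postnatal day 5. Per the submitters' processing notes, Trim Galore 0.4.4, Bismark 0.20.0, SAMtools 1.9 and mm39 were used. Settings and deduplication are not given in the sources used here. The authors deposited, per CpG cytosine, a count of reads (coverage, at least 10) and the percent read as cytosine or thymine, per the file headers. Coverage times percent gave a whole number within 0.02 for over 99.9% of cytosines and was rounded. Reads of both strands were added. The labels do not state separate animals, so the spread between samples on which each p-value rests may be technical. Reads are not independent molecules, so depth covers counting error only.

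A sample's level was the unweighted mean over CpGs, and the standardised level weighted the 4 density classes as in the interior. Ends and interior were compared within samples by exact sign-flip permutation, genotypes by exact permutation. CpGs, windows of 1000 bp and promoters (at least 3 CpGs each) were tested on methylated and unmethylated counts with edgeR 4.0.16 (quasi-likelihood, R 4.3.3), and 1 Mb regions (at least 50 CpGs) with limma 3.58.1 on mean levels, all with Benjamini-Hochberg adjustment over all autosomes at 0.05. Regions across a border (17) counted with neither side. Features at 0% or 100% in all 6 samples were not tested by edgeR. The window, promoter and region tests were checked on data with known changes.

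RefSeq promoters (GRCm38.p6, 250 bases before to 50 after the start) with at least 8 CpGs were placed where the listed mm39 CpGs repeated their CpG spacing at 1 place. Of 31396 distinct sequences, 16014 had too few CpGs, 6947 had no place and 73 several. After 11 out of order were left out, 8351 remained, of which 4487 were measured. No coordinates were converted between builds.

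Members and lists were chosen with earlier results of these data known. Named were the autosomes and 1 Mb regions at the extremes of each end, the 3 windows, promoters and regions and 2 CpGs of smallest p per end, dense windows at 30% to 70% in all samples, the outermost CpGs of chromosome 1, the 3 most methylated promoters per end and list members. Alternatives were 20 reads, the deepest CpGs (over the 99.9th percentile) left out, ends of 6 and 3 Mb or 13 and 10 Mb, read weights, equal autosome weights, density within 500 bp, limma on log2 ratios with 1 added, the replicate block, windows of 500 and 2000 bp, regions centred on the sample mean and each sample left out. Python 3.11.15 did the rest.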

Additional observations from a re-analysis of the deposited data

How the results depend on the processing

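Of 54 alternative values of the level differences between ends and interior, 24 kept their direction and side of the threshold, 24 with a sample left out could not reach it, and 6 turned. Genotype comparisons could not reach the threshold at all, so only their direction was followed, and 7 of 75 turned. The unstandardised centromere-proximal difference from the interior turned to -1.39 points with narrower ends and to -0.720 with reads as weights, and the standardised one to -0.174 with reads as weights. The distal difference turned to 0.322 points with wider ends unstandardised and to 0.613 standardised, and to 0.393 standardised with autosomes weighted equally. With narrower ends the distal class 6 to 10 was at -9.30 points. Read weights gave the distal ends -5.37 points unstandardised and -4.20 standardised. The centromere-proximal difference was 1.48 points unstandardised with wider ends and 4.26 standardised with equal autosome weights. Leaving out 1 sample gave 5 samples, for which the smallest exact permutation p is 0.0625. The unstandardised differences then ranged from 0.214 to 0.278 (centromere-proximal) and from -3.39 to -3.34 points (distal), and the standardised ones from 2.46 to 2.53 and from -1.13 to -1.08. The cause of these turns was not tested.

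The genotype difference at the centromere-proximal ends against that of the interior turned to -0.0544 points with wider ends and -0.316 with read weights, and ranged from -0.0126 (without WT replicate 1) to 0.155 when samples were left out, with -0.00391 without Chd8+/- replicate 2. At the distal ends it turned to 0.0488 at 20 reads, 0.00234 with narrower and 0.00972 with wider ends. With read weights it was -0.635.

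By class, the centromere-proximal level of the class 11 to 20 against the interior turned to -0.0394 at 20 reads, -0.0661 without the deepest CpGs, -0.777 with wider ends, -0.0598 with density within 500 bp and -0.0305 without Chd8+/- replicate 2, the lowest of the left-out samples (the highest was 0.0919). Without chromosome 19 it was 0.938. The distal class 11 to 20 turned to -0.730 with narrower ends, and the distal class 6 to 10 to 2.13 with wider ends and 0.335 with density within 500 bp. The genotype difference of the class over 20 turned to -0.0118 at 20 reads (centromere-proximal) and, at the distal ends, to -0.00802 with narrower ends, -0.00569 without WT replicate 1, -0.0258 without Chd8+/- replicate 2 (0.0738 at the highest with a sample left out) and -0.00821 without chromosome 19. That of the distal class 1 to 5 turned to -0.00989 in replicates 1 and 2.

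Same-numbered samples of the groups did not deviate together (correlations of 0.00456, 0.000833 and 0.00233 across CpGs), which by the rule used gave no sign of pairing. Replicate 3 of both groups shares the higher chromosome X share. With the replicate block the genotype differences stayed at 0.657 and 0.532 points at the ends (exact permutation p of 0.25 and 0.5, where 0.25 is the smallest for 3 pairs), and the block called 1 end region, chr19:61000001-62000000 (limma adjusted p = 0.0160). Left-out samples gave 0 to 1 called end region. CpGs, windows and promoters at the ends stayed at 0 calls in each alternative run. At 20 reads the counts at an unadjusted p under 0.05 went from 1278 of 35372 end CpGs to 676 of 20271. Over all autosomes these were 15013 of 418119 and 8132 of 245234. End windows went from 231 of 5867 to 108 of 3135, beside 2566 of 68160 and 1422 of 37164 over all autosomes. Of 374 end promoters, 3 became 18 with limma, 1 with the block and 0 to 6 with samples left out. Over all 3898 promoters the counts were 74, 230, 3 and 18 to 40. For 1 Mb regions at the ends the count went from 13 to between 8 and 24 with samples left out. Over all 2084 regions it went from 174 to between 118 and 280.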

Other observations

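A few CpGs at the ends were read far more deeply than the rest, and were picked for this after their values were seen. At the centromere-proximal end of chromosome 8, 4 CpGs between positions 3804409 and 3804451 had a mean of 3536 to 3594 reads, against a median of 39.7 reads at these ends. The first read 22.3%, 18.1% and 24.3% in WT and 29.98%, 36.8% and 29.5% in Chd8+/-. The last read 30.8%, 25.2% and 32.5% in WT and 38.1%, 42.5% and 39.9% in Chd8+/-. Groups were apart at all 4, but these are close neighbours and not separate observations. On chromosome 11, the deep CpGs between positions 3143483 and 3143627 were at 79.7% to 95.6%. The CpG at position 3143596 read 86.0%, 84.4% and 83.2% in WT and 82.0%, 79.7% and 80.7% in Chd8+/-, with groups apart. Groups overlapped at the other deep CpGs of this stretch. The neighbour at position 3143583 read 87.8%, 87.1% and 87.6% in WT and 90.2%, 88.6% and 86.7% in Chd8+/-. Whether reads from several genome copies fall on these positions was not tested.

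Of the other placed promoters over 5% at the ends, Pomc, the gene of the hormone precursor proopiomelanocortin, varied within WT. It read 0%, 0% and 23.9% in WT and 20.4%, 12.4% and 18.2% in Chd8+/-, over 5 CpGs with 59 to 276 reads per sample. Csf2ra read 33.5%, 52.1% and 26.0% in WT and 54.2%, 56.2% and 52.3% in Chd8+/-, with groups apart and an edgeR adjusted p of 0.937. Map10, a gene for a microtubule-associated protein, read 81.4%, 84.1% and 85.2% in WT and 84.2%, 76.5% and 71.3% in Chd8+/-. Gal, the galanin gene, read 1.28%, 0% and 6.35% in WT and 9.52%, 19.4% and 4.17% in Chd8+/-, over 3 CpGs with 41 to 95 reads. These 4 were chosen after their values were seen.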
